A study of Caenorhabditis elegans with 2 samples.

Results

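The genes described here encode structural components of P granules and were taken by name: *pgl-1*, *pgl-2*, *pgl-3*, *glh-1*, *glh-2*, *glh-4*, *deps-1*, *meg-3* and *meg-4*, 9 of the 19985 protein-coding genes annotated in *Caenorhabditis elegans*. Binding of LSY-2, a C2H2 zinc finger transcription factor, had been mapped by ChIP-seq, the sequencing of DNA recovered with the precipitated protein, in 1 group of 2 biological replicates, with no comparison group. Both replicates were whole mixed-stage embryos, pooled male and female, of strain OP367, which carries the mutation *unc-119(tm4063)* and the transgene *wgIs367*, from which LSY-2 is made with an eGFP tag. Whole embryos were used, so binding limited to the few germline precursor cells was not measured separately. The authors deposited a list of 30000 peaks and background regions for each replicate, a list of 30000 for the pooled replicates, and 2568 peaks passing a threshold on the irreproducible discovery rate, called the IDR list here. The IDR list held the pooled peaks of highest deposited signal value, down to rank 2568, so counts in the pooled and IDR lists are not independent. Coordinates are on build ce11. These lists do not give the read depth.

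P granules are RNA- and protein-rich condensates that sit at the nuclei of germ cells and are passed to the germline precursors in the early embryo. PGL proteins form the scaffold, GLH proteins are Vasa-related RNA helicases, DEPS-1 promotes granule assembly, and the disordered MEG proteins coat the granules in early embryos. Much of this material is supplied by the mother, and the granules also house Argonaute proteins and RNA-binding proteins that control germline messages.

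None of the 9 P granule component genes had a summit of the IDR list in its promoter window, which ran from 1000 bp upstream to 300 bp downstream of any annotated 5' end of the gene. Of all protein-coding genes 12.6% had one. At that share 9 genes would hold 1.13 on average. An observed 0 was taken to allow up to 3 counts, or 33.3% of 9 genes, as a rough bound and not a test. On that bound the count does not set these genes apart from others. No IDR summit lay inside the body of any of the 9 genes either. In the longer pooled list, which holds background by design, 2 of the 9 had a summit in the window, *glh-1* and *deps-1*, or 22.2% against 40.3% of all protein-coding genes. At the share of all genes, 3.63 of 9 would have one.

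The replicate lists on their own placed more of these genes near a summit. A summit lay in the window of 4 of 9 genes in replicate 1 (44.4%, against 43.3% of all genes) and of 5 of 9 in replicate 2 (55.6%, against 42.8%). In all, 6 of the 9 had a summit in at least 1 replicate (66.7%, against 55.3% of all genes), and 3 had one in both (33.3%, against 30.8%). Overlapping peaks in both replicates were found at *glh-1* and *deps-1* alone, or 22.2% against 26.7% of all genes. Among the 2568 highest peaks of both replicates no such pair was found at the 9 genes, against 9.98% of all genes. No summit in any of the 4 lists lay in the windows of *pgl-1*, *pgl-2* and *glh-4*, or 33.3% against 43% of all genes. Every one of these shares is based on 9 genes, and none was tested.

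**Figure D1:**
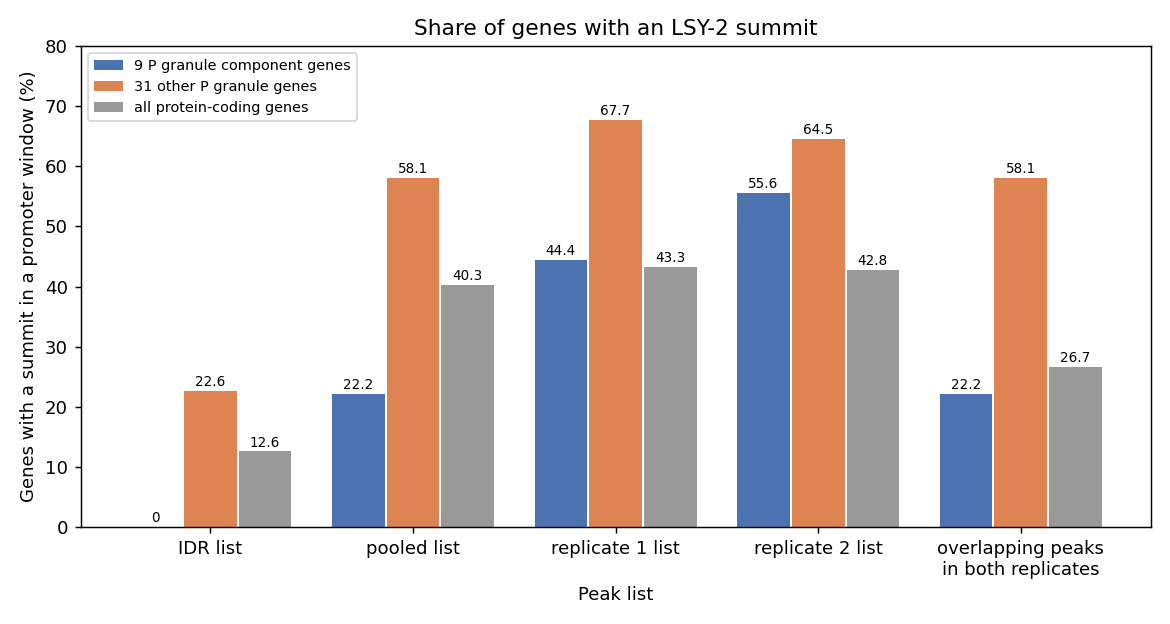
Bars give the percentage of genes with an LSY-2 summit in a promoter window for the IDR, pooled and replicate lists and for overlapping peaks in both replicates, in the 9 P granule component genes, 31 other P granule genes and all 19985 protein-coding genes. The component genes stood at 0% in the IDR list and at 22.2% in the pooled list, against 12.6% and 40.3% of all genes.

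Across the pooled and replicate lists the windows of the 9 genes held 11 summits, 2 in the pooled list, 4 in replicate 1 and 5 in replicate 2. The best of them ranked 3913 in its list by the authors' signal value and the lowest ranked 26650, and the next best after 3913 was the pooled summit at *glh-1*, ranked 5078. The other 9 ranked from 12859 to 26650. For scale, the last peak of the IDR list ranked 2568 in the pooled list with a signal of 33.4, and the signals of the pooled list ran from 5501 down to 6.43. At the same rank the signal was 18.5 in replicate 1 and 17.5 in replicate 2. All 11 summits lay upstream of the 5' end, between -37 and -694 bp.

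Among the scaffold genes, *pgl-3* (WBGene00003994, chromosome V, 4755979 to 4758587, plus strand) was the only one with a summit in its window in any list. It was found in replicate 2, at -423 bp, with rank 23105 and a signal of 4.35, against a lowest signal of 3.44 in that list. Its −log10 q-value was 0.292, in a replicate 2 list whose values ran from 0.155 to 2.8. Replicate 1 and the pooled list held no summit in the window. The next gene upstream, *hil-4*, a linker histone gene, lies on the same strand 525 bp away and had no IDR summit in its own window.

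*pgl-1* (WBGene00003992, chromosome IV, 6974441 to 6977318, minus strand) had no summit within its window in the pooled list or in either replicate. The nearest summits lay at -5956 bp in the pooled list, -6598 bp in replicate 1 and -5395 bp in replicate 2, with ranks of 22945, 17324 and 22853. Its 5' end faces that of *him-3*, which encodes a meiotic chromosome axis protein, across 189 bp, and *him-3* had no IDR summit either. The nearest IDR summit was 39390 bp upstream of *pgl-1*, in the window of *gldi-4*.

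*pgl-2* (WBGene00003993, chromosome III, 8670543 to 8675435, minus strand) had the nearest IDR summit of all 9 genes, 3121 bp upstream of its 5' end. That peak spanned 8678366 to 8678745, with a signal of 73.1 and rank 879, and overlapped peaks ranked 708 in replicate 1 and 1204 in replicate 2. Its summit lay inside a transfer RNA gene (WBGene00006314) and within the body of *fli-1*, a Flightless homologue that lies on the strand of *pgl-2* and overlaps its 5' end. The 101 bp around this summit, on the minus strand, are shown because it is the IDR peak closest to any of the 9 genes, with every match to CGCG in capitals.
pgl-2 upstream peak, chrIII:8678506-8678606: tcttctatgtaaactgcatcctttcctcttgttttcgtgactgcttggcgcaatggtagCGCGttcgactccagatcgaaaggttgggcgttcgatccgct
No summit of the IDR list fell in a protein-coding promoter window at this place, and the peak was not assigned to *pgl-2*.

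Of the helicase genes, *glh-1* (WBGene00001598, chromosome I, 6854478 to 6857536, plus strand) came closest to the IDR list. Its pooled peak, from 6854227 to 6854606, had its summit at -61 bp, rank 5078 and a signal of 19.6, below the 33.4 of the last IDR peak. The replicates differed: the summit ranked 3913 in replicate 1, with a signal of 13.8 at -37 bp, and 25342 in replicate 2, with a signal of 4.03 at -112 bp. The −log10 q-value of the pooled peak was 1.5, and no peak of the IDR list had one under 2.32. In the replicate lists the value was 2.37 in replicate 1 and 0.239 in replicate 2. Both peaks overlapped by 271 bp, with their summits 75 bp apart. Of the 8053 genes with a pooled summit, 3584 had a better one than *glh-1*, or 44.5%. No other protein-coding gene shared these summits. The upstream gene *sacy-1*, which encodes a DEAD-box helicase, ends 337 bp away on the same strand, and the nearest IDR summit lay 4400 bp upstream of *glh-1* in the window of *rpb-5*, an RNA polymerase subunit gene.

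*glh-2* (WBGene00001599, chromosome I, 6513928 to 6517507, plus strand) had a summit in its window in each replicate but none there in the pooled list. In replicate 1 it lay at -106 bp, with rank 25431 and a signal of 4.73, and in replicate 2 at -691 bp, with rank 14273 and a signal of 6.02. These summits were 585 bp apart and their peaks did not overlap. The summit of replicate 1 was shared with the divergent gene C55B7.11 (WBGene00016947), lying 8 bp downstream of its nearest 5' end. The gap between both genes is 97 bp.

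*glh-4* (WBGene00001601, chromosome I, 3727027 to 3731179, plus strand) lies 5869 bp from the divergent gene *lin-59*, which encodes an ASH1-related histone methyltransferase. *glh-4* had no summit in its window in any list. Its nearest pooled summit, at -3563 bp, ranked 3080 with a signal of 28.6 and was in no protein-coding promoter window. The nearest IDR summit, at -5431 bp, was in the window of *lin-59*, had a signal of 42.5 and rank 1913, and overlapped a peak ranked 821 in replicate 1 but no peak in replicate 2.

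The assembly gene *deps-1* (WBGene00022034, chromosome I, 506473 to 509056, plus strand) was the other gene with a pooled summit in its window. That summit ranked 15223, with a signal of 10.4 close to the median of 10.5 over the pooled list, and lay at -96 bp. Of the genes with a pooled summit, 72.5% had a better one. Replicate 1 placed it at -89 bp with rank 12859 and a signal of 7.27, and replicate 2 at -315 bp with rank 13865 and a signal of 6.13. The replicate peaks overlapped by 120 bp. In contrast to *glh-1*, the ranks in both replicates were of similar size. All 3 summits were shared with the divergent gene Y65B4BL.4 (WBGene00022036), 222 bp away. The pooled summit was at -127 bp from the nearest 5' end of that gene, so *deps-1* was the nearer gene, while the summit of replicate 2 was 92 bp inside Y65B4BL.4.

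Each of the *meg* genes had 1 summit in its window, in 1 replicate. *meg-3* (WBGene00001569, chromosome X, 1986469 to 1989607, minus strand) had it in replicate 1, at -214 bp with rank 20549 and a signal of 5.52, shared with the divergent gene Y40A1A.2 (WBGene00021484), at -913 bp. *meg-4* (WBGene00016485, chromosome X, 1682954 to 1686419, plus strand) had it in replicate 2, at -694 bp with rank 26650 and a signal of 3.85, the lowest rank among the 11 summits. The nearest IDR summits were far from both genes, at 79989 bp for *meg-3* and 55834 bp for *meg-4*.

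The windows of 101 bp around the weak summits of *meg-3*, *meg-4* and *pgl-3* are shown on the strand of each gene, to be set beside those of genes with strong summits, with CGCG in capitals.
meg-3, replicate 1, chrX:1989771-1989871: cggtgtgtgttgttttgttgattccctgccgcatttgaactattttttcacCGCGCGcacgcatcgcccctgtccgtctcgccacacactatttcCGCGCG
meg-4, replicate 2, chrX:1682210-1682310: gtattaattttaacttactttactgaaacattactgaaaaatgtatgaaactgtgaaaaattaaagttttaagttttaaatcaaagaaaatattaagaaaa
pgl-3, replicate 2, chrV:4755506-4755606: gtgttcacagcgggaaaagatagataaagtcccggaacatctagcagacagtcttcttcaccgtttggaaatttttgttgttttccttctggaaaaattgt
The *meg-3* window was 55.4% G and C, against 17.8% for *meg-4* and 39.6% for *pgl-3*.

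**Figure D2:**
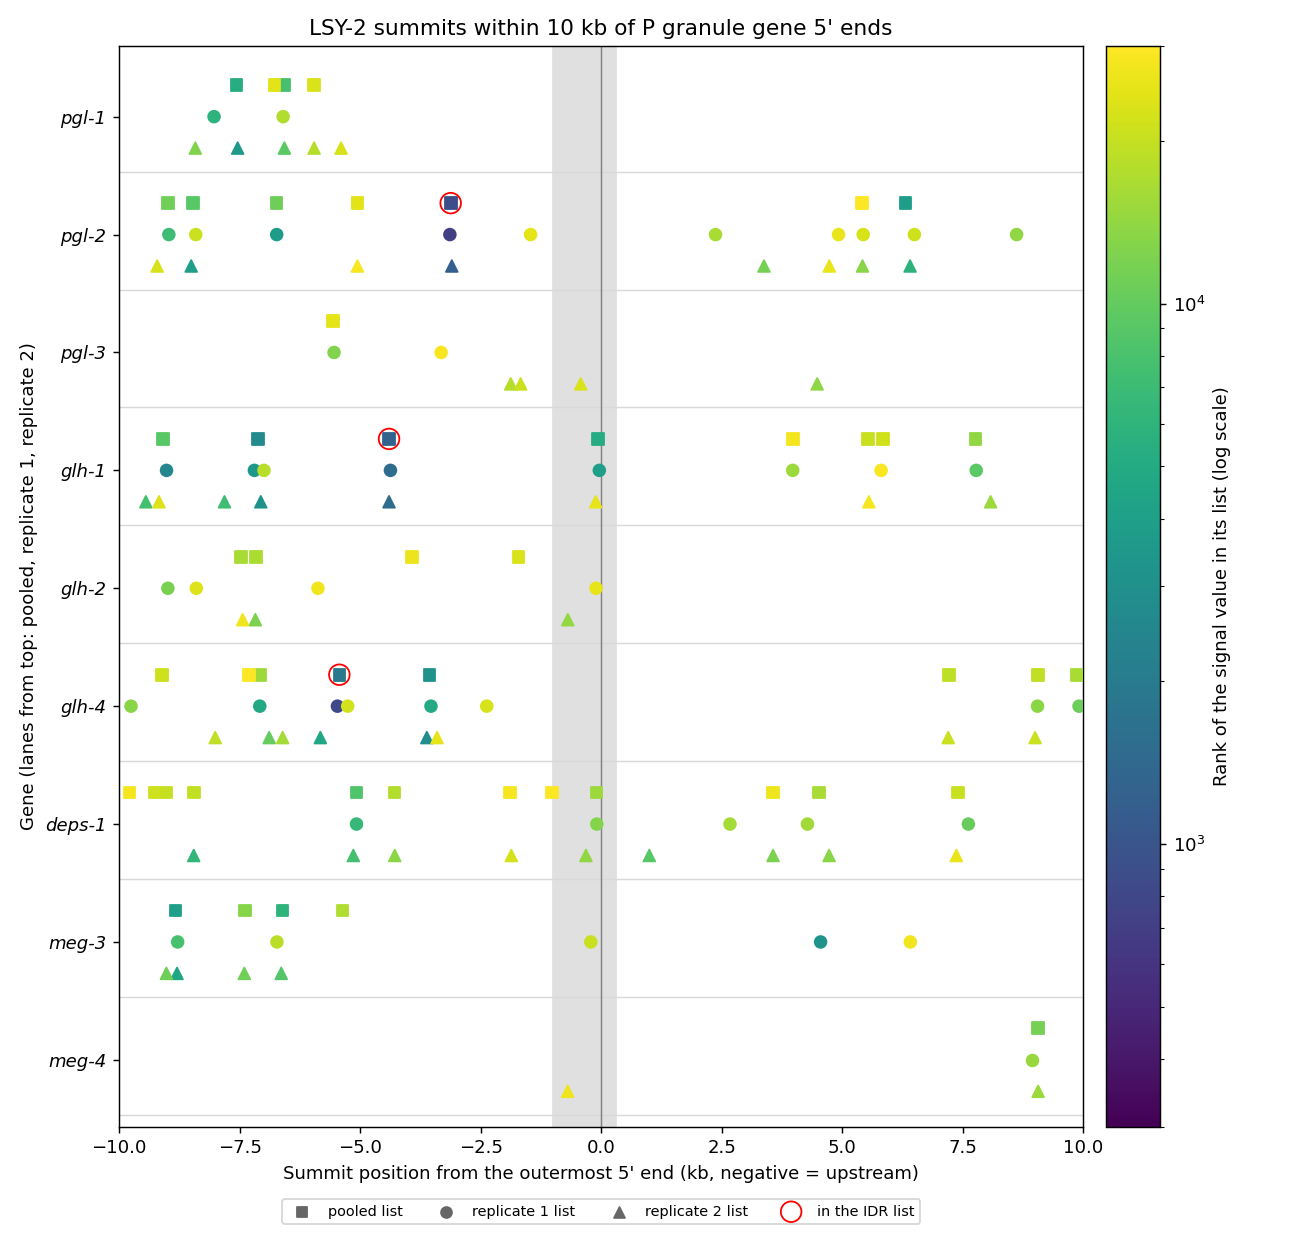
Summits within 10 kb of the outermost 5' end of each P granule component gene are placed by distance in kb, in lanes for the pooled, replicate 1 and replicate 2 lists, with colour giving the rank of the signal value in its list, red circles marking IDR peaks and grey shading the promoter window. Only *pgl-2*, *glh-1* and *glh-4* had an IDR peak within 10 kb, at -3121, -4400 and -5431 bp, and no red circle lies in the shaded window.

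The distance to the nearest IDR summit varied widely among the 9 genes, with a median of 19940 bp and a range of 3121 to 79989 bp. Over all protein-coding genes the median was 15209 bp. *pgl-2*, *glh-1* and *glh-4* lay nearer to a summit than most genes, with 21.2%, 25.4% and 28.6% of all genes nearer still. *meg-3*, *meg-4* and *pgl-1* lay farther than most, with 91%, 84.6% and 76.6% of all genes nearer. The genes are spread over 5 chromosomes that differ in how many genes have an IDR summit: 20.4% on chromosome I, where 4 of the 9 lie, 20.9% on III, 12.1% on IV, 7.01% on V and 6.55% on X, where *meg-3* and *meg-4* lie.

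**Figure D3:**
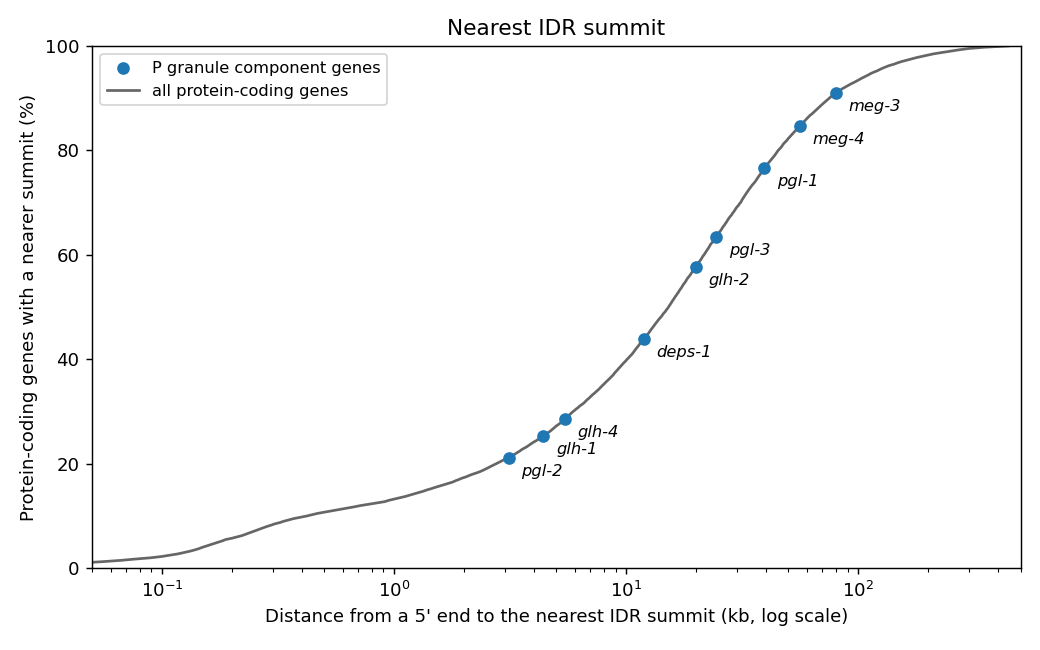
The line gives, for each distance to the nearest IDR summit in kb on a log axis, the percentage of all protein-coding genes that lie nearer, and the points mark the 9 P granule component genes. They run from *pgl-2*, at 3121 bp, to *meg-3*, at 79989 bp, along most of the range of all genes, and none lies in the part of the line below 1 kb.

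Other P granule genes, listed by name for comparison, did have IDR summits: 7 of 31, or 22.6%, against 12.6% of all protein-coding genes. With each summit given only to the gene of its nearest 5' end, the order turned round, with 2 of 31, or 6.45%, against 8.84% of all genes. The pooled list had a summit at 18 of the 31, or 58.1%, against 40.3%. By class, an IDR summit was found at 2 of 12 further granule proteins, 1 of 5 regulators of granule segregation, 2 of 7 RNA-binding proteins and 2 of 7 small RNA pathway genes. No summit in any list lay in the windows of 9 of the 31, or 29% against 43% of all genes, among them the paralogues *glh-3*, *meg-1* and *meg-2*. Whether the 31 genes differ from the 9 was not tested.

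The strongest of these was at *mex-1* (WBGene00003228), which encodes a CCCH zinc finger protein needed for germline fate, with rank 397 and a signal of 134. *vbh-1* (WBGene00006888), a Vasa- and Belle-like helicase gene, followed at rank 415, and *cgh-1* (WBGene00000479), the DDX6-like helicase gene, at rank 439. *ekl-1*, whose product acts in small RNA synthesis, had rank 565, and *mex-5*, a CCCH zinc finger polarity gene, rank 662. *spn-4*, an RNA-binding protein gene, had rank 1314 and *prg-1*, the Piwi Argonaute gene, rank 2056. Ranks in the replicates were close for *mex-1*, at 386 and 421, but farther apart for *mex-5*, at 376 in replicate 1 and 1997 in replicate 2.

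Most of these 7 summits were shared: 6 also lay in the window of another gene, and for 5 of the 7 that other gene's 5' end was nearer. As a scale for the nearer 5' end, 2519 protein-coding genes had an IDR summit, and 1767 did when each summit went only to its nearest 5' end. No share of all genes is given for sharing itself. Whether sharing was more common at the 7 genes than at all genes was not tested. The *mex-1* summit was at -904 bp from *mex-1* but at -189 bp from W03C9.5 and -802 bp from *rab-7*. The *vbh-1* summit was nearer to *mrpl-17*, the *spn-4* summit to *spe-39*, the *prg-1* summit to D2030.7 and the *ekl-1* summit to *prpf-4*. The summits at *mex-5*, at -237 bp, and *cgh-1*, at -777 bp, had these genes as their nearest. *mex-5* shared its summit with *rec-8*, a meiotic cohesin gene, at -293 bp.

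Of the genes without an IDR summit, *car-1* and *mbk-2* had the best pooled ranks, 2938 and 4068. *wago-4*, an Argonaute gene of heritable silencing, stood apart, with a summit at -196 bp of rank 518 in replicate 1 and at -188 bp of rank 499 in replicate 2, but no summit in the pooled list and hence none in the IDR list. Of the 9 component genes, *glh-2* also had a summit in its window in each replicate and none there in the pooled list. Its ranks were 25431 and 14273, in peaks that did not overlap.

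**Figure D4:**
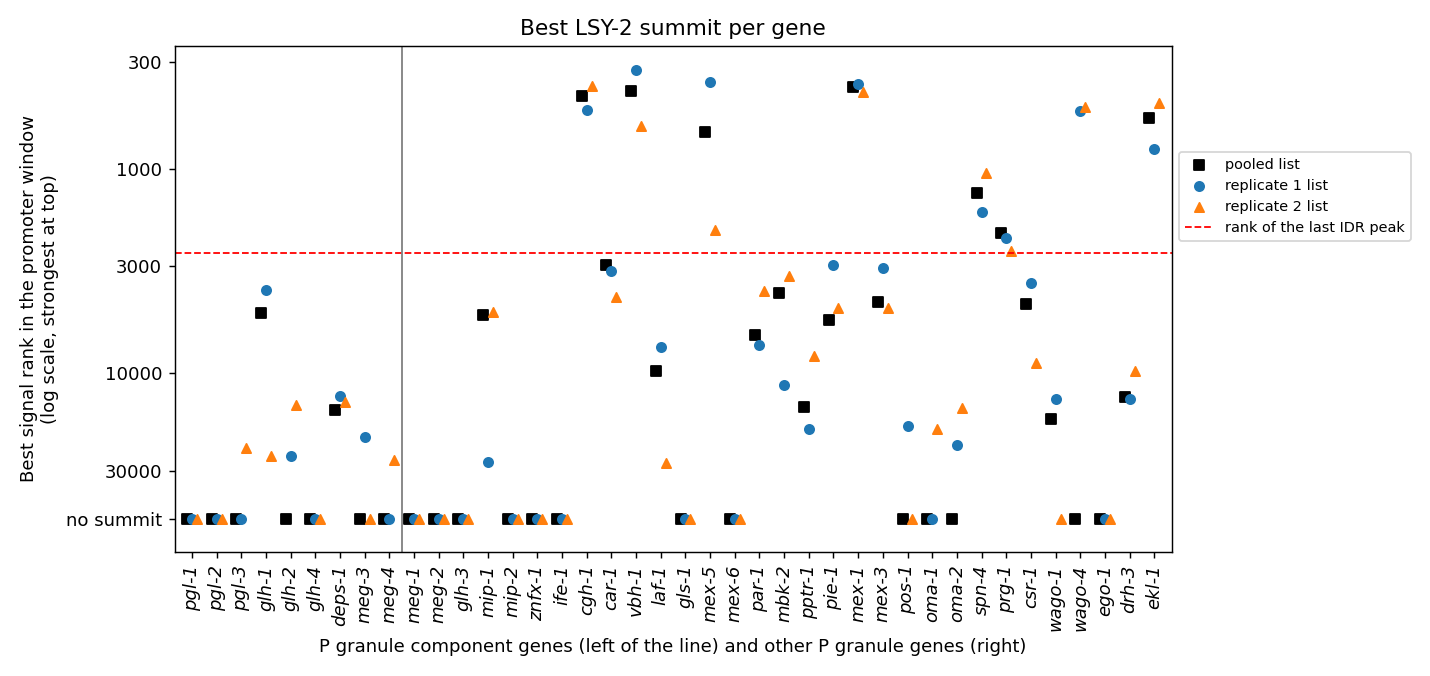
Points give the best rank of the signal value among summits in the promoter window of each gene, on a log axis with the strongest at the top, for the pooled, replicate 1 and replicate 2 lists, and the dashed line marks the rank of the last IDR peak, 2568. The 9 component genes on the left have no point above the line, and 7 of the 31 other genes have a pooled point above it, while *wago-4* has replicate points only.

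The sequences under strong summits are shown for 4 of the 7 genes with an IDR summit, *mex-1*, *cgh-1*, *mex-5* and *spn-4*, and for *wago-4*, each as 101 bp on the strand of the gene with CGCG in capitals.
mex-1, IDR list, chrII:11967683-11967783: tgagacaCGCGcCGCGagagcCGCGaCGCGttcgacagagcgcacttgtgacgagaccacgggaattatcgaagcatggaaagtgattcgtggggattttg
cgh-1, IDR list, chrIII:7498559-7498659: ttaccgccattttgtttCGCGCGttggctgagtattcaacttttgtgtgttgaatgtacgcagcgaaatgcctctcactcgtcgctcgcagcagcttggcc
mex-5, IDR list, chrIV:13353436-13353536: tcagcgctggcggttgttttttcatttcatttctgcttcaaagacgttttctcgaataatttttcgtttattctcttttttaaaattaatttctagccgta
spn-4, IDR list, chrV:6785246-6785346: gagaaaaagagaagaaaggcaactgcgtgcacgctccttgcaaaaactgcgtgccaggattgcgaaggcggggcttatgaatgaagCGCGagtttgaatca
wago-4, replicate 1, chrII:12919305-12919405: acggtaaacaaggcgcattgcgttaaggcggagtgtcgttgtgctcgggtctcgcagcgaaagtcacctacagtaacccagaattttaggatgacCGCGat
CGCG reads the same on both strands. The *mex-5* window held no match and was 31.7% G and C, against 50.5% to 57.4% for the other 4, which held 1 to 4 matches. CGCG occurred in 44.9% of 101-bp windows around nuclear IDR summits, against 11.6% of those around the pooled summits below them, 10.7% in replicate 1 below rank 2568 and 11.8% in replicate 2. The G and C content moved with it, with a median of 46.5% in the IDR windows against 32.7%, 33.7% and 34.7% in the other 3 sets, and its part in the difference was not tested. The letters were chosen after these windows were seen, and a match is no sign of a binding site.

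The promoter windows of the 9 genes were 32.4% to 42% G and C, with a median of 37.7%, against 36.5% for all nuclear protein-coding genes with an IDR summit and 35% for all nuclear protein-coding genes. The richest were *pgl-3*, at 42%, *glh-1*, at 40.3%, and *deps-1*, at 40.2%, and the poorest *pgl-2*, at 32.4%. CGCG was present in all 9 windows, from 1 match in *pgl-2* and *deps-1* to 7 in *glh-4*. It was present in 67.2% of the windows of all nuclear protein-coding genes and in 89.6% of those with an IDR summit. Among the 31 other P granule genes the share was 87.1%. *glh-4*, with the most matches, had no summit in its window in any list.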

How the data were processed

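Peak lists were used as the authors deposited them, on ce11, without reads. The sources used here name no aligner, peak caller, version or IDR cutoff. Per the deposited metadata, the IDR list was made from the pooled list and both replicate lists, and the lists of 30000 peaks used 1 more input of unstated kind. The deposited signal value of each peak is the authors' own and served only for ranks and comparisons within a list. The deposited −log10 q-value and summit offset were taken as given.

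Genes and 5' ends of protein-coding transcripts came from Ensembl release 115 for WBcel235, the same assembly as ce11, and sequences from the RefSeq copy of that assembly. All peaks ended within its chromosomes. Peaks were taken to overlap from 1 bp. No test was run: 1 group of peak lists allows counts beside those of all genes. The assignment was tested on simulated summits. Control samples were not analysed here, so signal common to active promoters was not measured. The ce10 lists were not used.

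The genes and lists were chosen with earlier results of these data known. Named were the 9 genes, genes sharing their summits, list members with an IDR summit, and the best 2 without one by pooled rank. Neighbours, *wago-4* and the paralogues were added after their values were seen. Python 3.11.15, numpy 2.4.6, pandas 2.3.3 and matplotlib 3.10.9 were used.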

Additional observations from a re-analysis of the deposited data

How the results depend on the processing

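None of the 9 component genes had an IDR summit under any of the 10 settings tried: promoter windows of 500 bp upstream to 100 bp downstream or 2000 bp upstream to 500 bp downstream, peak midpoints, any overlap of peak and window, the outermost 5' end, the nearest 5' end, the 1284 IDR peaks of highest signal, each replicate alone, and the top 2568 peaks of both replicates without the pooled list, which was added after seeing the data. The shorter window, the outermost 5' end, the nearest 5' end and the 1284 highest peaks only take windows or peaks away. These settings could not raise the count and say nothing about its stability. The same holds for the top peaks of both replicates, since each replicate alone had already given 0. Each replicate alone was read from the strongest peaks of its own list, in place of the IDR list. The count in the pooled list was 1 (11.1%, against 29% of all genes) with the 15000 peaks of highest signal, where *glh-1* remained. With the longer window it was 3 (33.3%, against 49.9%), with *glh-2* added. Each replicate list in place of the pooled list gave the replicate counts already described: 4 without replicate 2 (44.4%, against 43.3%) and 5 without replicate 1 (55.6%, against 42.8%). The count of other P granule genes with an IDR summit, 7 of 31, was 11 with the longer window (35.5%, against 15.9% of all genes). With the strongest peaks of either replicate in place of the IDR list it was 8 (25.8%), with *wago-4* added. The share of all genes was 12.2% without replicate 2 and 12.4% without replicate 1. It was 2 when each summit was given only to its nearest 5' end (6.45%, against 8.84%), where the share lay below that of all genes and not above it. No paired analysis was possible because the samples form 1 group and no test was run. Depth is unknown, so a weak summit in 1 replicate could not be told apart from background.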

Other observations

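Regions strong in both replicates were not always in the pooled list. Of the 1911 peaks among the top 2568 of replicate 1 that overlapped a top peak of replicate 2, 20 overlapped no pooled peak, or 1.05%. Their summits lay in the windows of 28 genes, among them *wago-4*. The 9 P granule component genes were excluded by the choice of peaks. The best replicate 1 summit in the windows of these 9 genes, at *glh-1*, ranked 3913, outside the top 2568. Their absence from the 28 genes is therefore no separate result. The summit at *wago-4* was also in the window of F58G1.2, at -345 bp in replicate 1 and -353 bp in replicate 2. The cause was not tested.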
